A study of Saccharomyces cerevisiae with 16 samples.

Results

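Aminoacyl-tRNA synthetases join each amino acid to its tRNA and so supply the ribosome with charged tRNA. Budding yeast, *Saccharomyces cerevisiae*, makes 1 set of these enzymes for the cytosol and another, also encoded in the nucleus and translated on cytosolic ribosomes, for the translation system inside mitochondria. A few genes serve both places, mostly by making a longer protein with a mitochondrial targeting sequence from an upstream start codon. The synthetases described here were chosen by name, as the 35 genes of a fixed list, 21 for cytosolic and 14 for mitochondrial enzymes. Of these, 33 were found in both deposited tables, all 21 cytosolic and 12 of the mitochondrial ones, among 5330 genes at 37 °C and 5190 at 15 °C. *MSF1* and *MSR1*, the mitochondrial enzymes for phenylalanine and arginine, were not analysed here.

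The values come from ribosome footprints (mRNA fragments protected by ribosomes from RNase I) and from mRNA, sequenced from wild-type *TIF3* cells (strain FJZ46) and from cells without *TIF3* (*tif3*Δ, strain FJZ52). *TIF3* encodes eIF4B, an initiation factor that helps ribosomal subunits load onto mRNA and move through the leader to the start codon, and the series asks which mRNAs depend on it most, by length and by leader structure. All cultures grew in synthetic complete medium, were moved to 37 °C (experiment 1) or 15 °C (experiment 2), and received cycloheximide, which halts elongation, shortly before harvest. The 16 libraries make 8 groups of 2, 1 group for each temperature, genotype and library type. The labels number the libraries of a group but do not say whether they came from separate cultures, and the sources used here do not state whether the deletion strain is 1 clone.

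Each table holds 1 log2 normalised value per gene and group, with no value for a single library. No difference below therefore has a replicate error or a test, and "higher" and "lower" compare group values only. Dividing footprints by mRNA gives the translational efficiency (TE) of a gene, and a TE difference is *tif3*Δ minus wild type on the log2 scale. Because the values are normalised, differences are relative to the other genes. The spacing of the lowest footprint values gave about 17500000 (wild type) and 11900000 (*tif3*Δ) footprints for the 37 °C table, and 5400000 and 1800000 for the 15 °C table. The 95% counting intervals given below (exact Clopper-Pearson) come from these approximate footprint numbers and cover counting error only. The mRNA depth is unknown. In the authors' deposited table, *TIF3* itself had footprints 157.0-fold lower in *tif3*Δ at 37 °C and 43.8-fold lower at 15 °C, and it was left out of all counts.

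In wild-type cells the cytosolic enzymes were encoded by abundant and efficiently translated mRNAs. The mitochondrial enzymes were encoded by scarce mRNAs, most of them near or below the TE of the median gene. At 37 °C the cytosolic mRNAs stood, per kilobase of coding length, at a median of log2 1.99 above the median gene (1.07 to 2.74, 21 genes), and the mitochondrial mRNAs at -1.17 (-1.65 to -0.42, 12 genes). Wild-type TE relative to the median gene was 1.48 (0.69 to 2.07) in the cytosolic group and -0.40 (-1.04 to 0.17) in the mitochondrial group. The groups did not overlap in either measure. At 15 °C the cytosolic mRNAs stood at 2.45 (1.46 to 3.64) per kilobase and the mitochondrial mRNAs at -1.17 (-2.50 to -0.32), again without overlap. Wild-type TE at 15 °C was 0.80 (0.14 to 1.61) against -0.38 (-1.01 to 0.57), and here the groups overlapped, through the mitochondrial enzymes for asparagine, *SLM5*, and serine, *DIA4*.

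**Figure D1:**
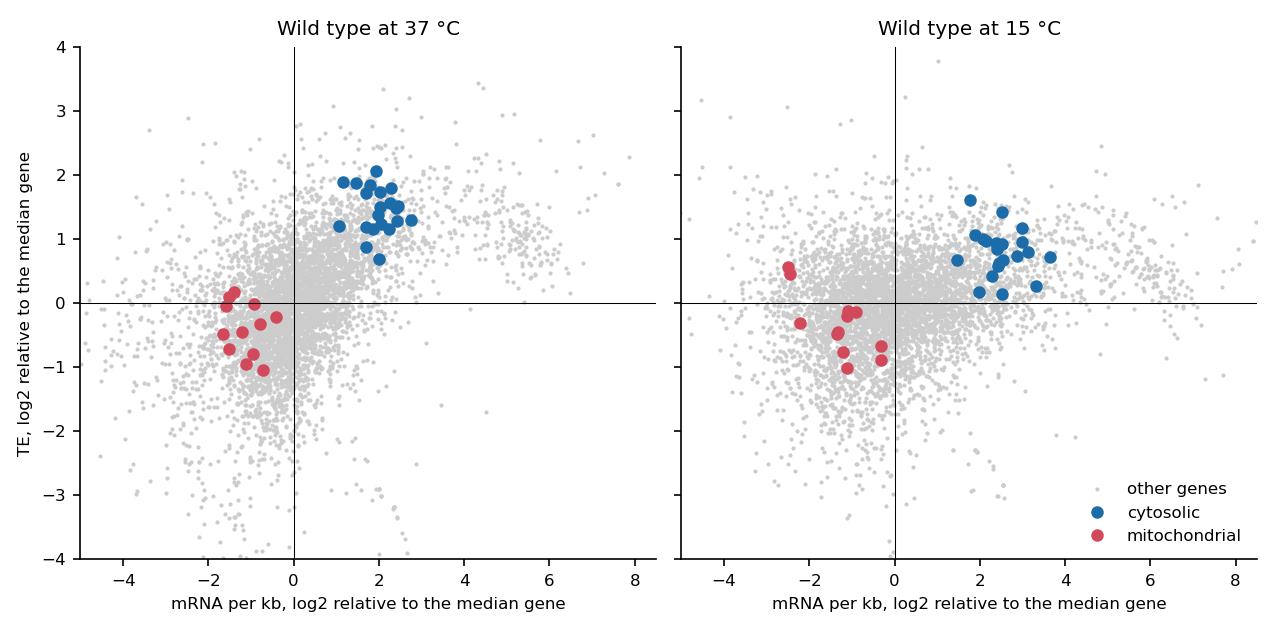
Wild-type TE (y axis) against wild-type mRNA per kilobase (x axis), both as log2 relative to the median gene, at 37 °C (left) and 15 °C (right), with 1 point per gene. The 21 cytosolic enzymes (blue) lie to the upper right, from 1.07 to 2.74 in mRNA and 0.69 to 2.07 in TE at 37 °C, and the 12 mitochondrial enzymes (red) lie to the left, from -1.65 to -0.42 in mRNA.

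Within the cytosolic group at 37 °C the highest wild-type TE belonged to *DPS1*, the aspartyl enzyme, at 2.07 above the median gene, followed by *ALA1* (alanyl) at 1.89 and *CDC60* (leucyl) at 1.88. *DPS1* had log2 values of 13.36 in wild-type and 13.16 in *tif3*Δ footprints and 11.3 and 11.4 in mRNA. The lowest was *WRS1*, the tryptophanyl enzyme, at 0.69, with footprints at 11.68 and 11.7 and mRNA at 11 and 11.1. *GLN4*, the glutaminyl enzyme, followed at 0.87, with footprints at 12.46 and 11.96 and mRNA at 11.6 and 11.3. *FRS1*, a subunit of the phenylalanyl enzyme, came next at 1.15, with footprints at 12.84 and 12.6 and mRNA at 11.7 and 11.8. Even the lowest cytosolic enzyme was thus above every mitochondrial one. Highest among these were *MST1* (threonyl) at 0.17, *MSD1* (aspartyl) at 0.10 and *AIM10* (a predicted prolyl enzyme) at -0.01. *MST1* had footprints at 7.86 in wild type and 7.81 in *tif3*Δ and mRNA at 7.7 and 7.6. *MSD1* had footprints at 8.19 and 8.12 and mRNA at 8.1 and 8.0. *AIM10* had footprints at 8.48 and 8.51 and mRNA at 8.5 and 8.6. The lowest mitochondrial TE values were those of *MSK1* (lysyl) at -1.04, *MSE1* (glutamyl) at -0.96 and *DIA4* at -0.80.

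At 15 °C *CDC60* (1.61), *DPS1* (1.43) and *GUS1*, the glutamyl enzyme (1.17), had the highest wild-type TE of the cytosolic group. *DPS1* had footprints at 11.74 in wild type and 11.7 in *tif3*Δ, with mRNA at 10.3 and 10.5. The lowest were *YHR020W*, the prolyl enzyme, at 0.14, *GLN4* at 0.18 and *THS1*, the threonyl enzyme, at 0.27. *GLN4* had footprints at 10.49 and 10.3 and mRNA at 10.3 and 10.2, and *THS1* had footprints at 11.78 and 11.6 and mRNA at 11.5 in both genotypes. In the mitochondrial group *SLM5* (0.57), *DIA4* (0.46) and *MSY1*, the tyrosyl enzyme (-0.12), were highest and *MSD1* (-1.01), *MSK1* (-0.89) and *MSE1* (-0.76) lowest. *SLM5* had footprints at 5.68 and 5.5 and mRNA at 5.1 and 4.8. *DIA4* had footprints at 5.47 and 5.7 and mRNA at 5.0 in both genotypes. The enzymes *SLM5* and *DIA4* had the scarcest mRNA per kilobase of all 33 synthetases at 15 °C, -2.50 and -2.45 relative to the median gene, and about 71 and 61 wild-type footprints. *MSY1* had footprints at 6.39 and 6.5 and mRNA at 6.5 and 6.2, and *MSD1* had footprints at 5.9 and 5.4 and mRNA at 6.9 and 6.6. Across genes, the order of wild-type TE at the 2 temperatures had a Spearman rho of 0.69 over the 21 cytosolic enzymes, 0.22 over the 12 mitochondrial enzymes and 0.75 over 4999 genes. The tables were normalised separately and temperature was also the experiment, so levels at 37 and 15 °C cannot be set against each other.

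Without eIF4B at 37 °C, TE was lower for nearly all cytosolic synthetases, by modest amounts. The TE difference was below 0 for 20 of 21 cytosolic enzymes (95.2%), with a median of -0.27 (-1.06 to 0.24), against 47.4% of all 5197 genes tested and a median of 0.04. In the mitochondrial group 5 of 12 were below 0 (41.7%), with a median of 0.03 (-1.15 to 0.36). TE was at least 1.5-fold lower for 4 cytosolic enzymes (19%) and 1 mitochondrial enzyme, against 11.1% of all genes. No synthetase had TE at least 1.5-fold higher, against 10.3% of all genes. All 33 synthetases passed the filter on low values at both temperatures. When each gene was compared with genes of its own coding length, the cytosolic median was -0.10 and only 1 of the 5 synthetases, *NAM2*, was still 1.5-fold lower.

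**Figure D2:**
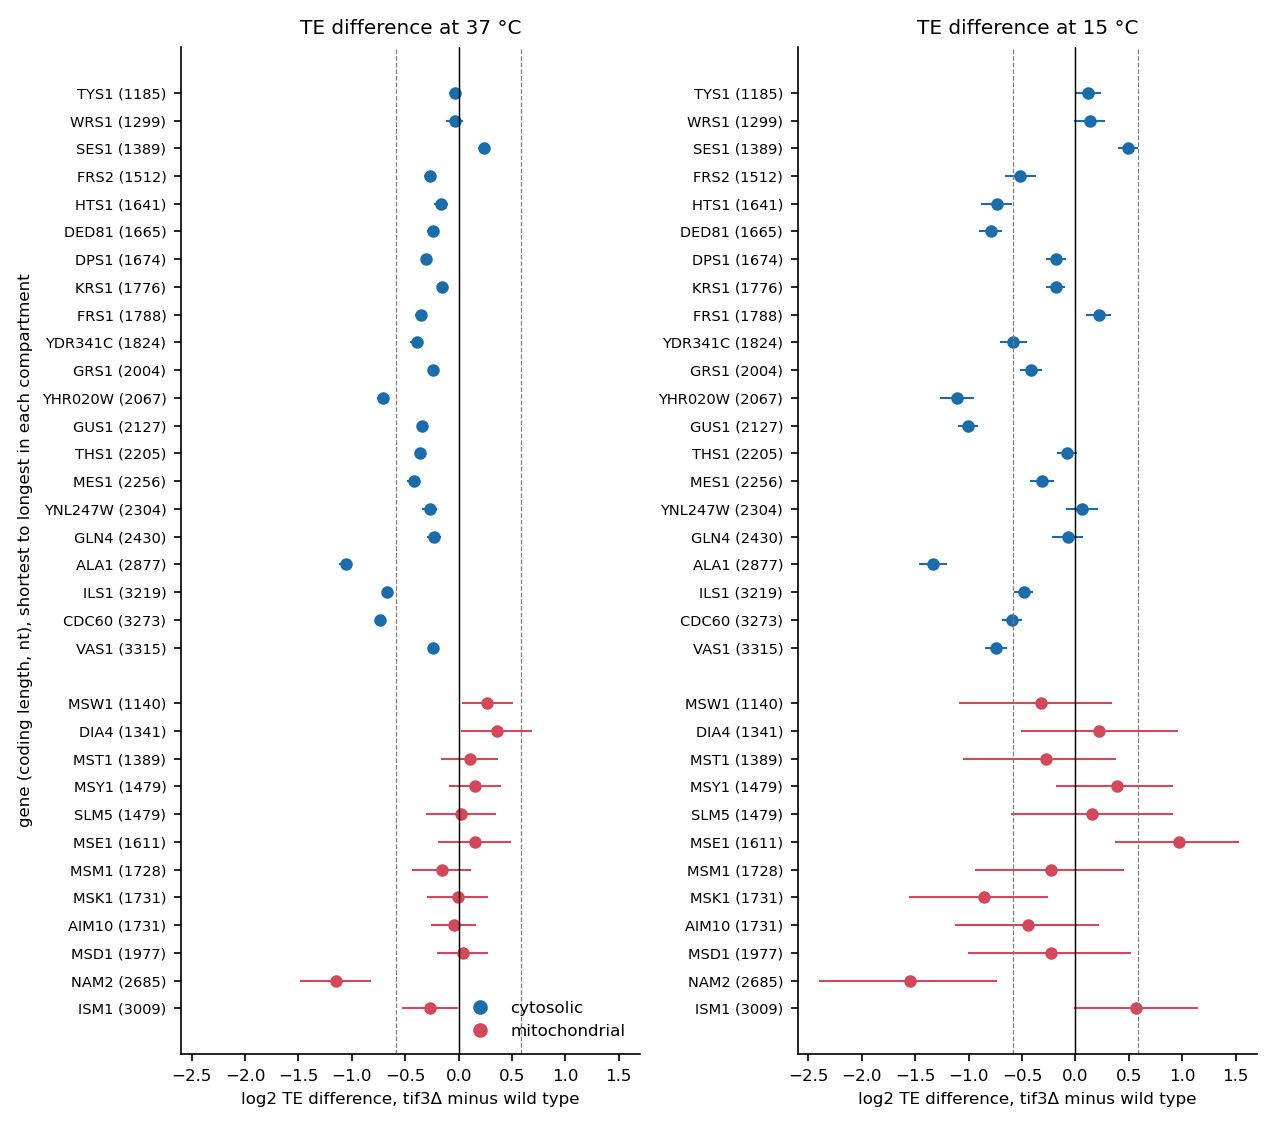
TE difference of each synthetase (x axis, log2, *tif3*Δ minus wild type) at 37 °C (left) and 15 °C (right), ordered from the shortest to the longest coding sequence within the cytosolic (blue) and mitochondrial (red) groups, with coding length in nucleotides beside each name. Bars are 95% counting intervals of the footprints and not replicate errors, and dashed lines mark 1.5-fold. *ALA1* (-1.06 and -1.34) and *NAM2* (-1.15 and -1.55) lie farthest to the left in their groups at both temperatures, and the bars are wider in the mitochondrial group.

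*ALA1*, which makes both the cytosolic and the mitochondrial alanyl enzyme, had the lowest TE difference of the cytosolic group. Its footprints stood at log2 13.18 in wild type and 12.11 in *tif3*Δ, about 12633 and 4084 footprints, while its mRNA stood at 11.3 in both. In the authors' deposited table its TE was 2.08-fold lower and its footprints 2.10-fold lower in *tif3*Δ, with a counting interval of the log2 footprint difference from -1.12 to -1.02. The 2 mRNA values were equal to 1 decimal, so the difference lay in the footprints.

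*CDC60*, the cytosolic leucyl enzyme, had footprints at 13.67 and 13.04 and mRNA at 11.8 and 11.9. In the authors' deposited table its TE was 1.66-fold lower. *YHR020W*, the prolyl enzyme, had footprints at 13.19 and 12.32 and mRNA at 11.7 and 11.5. The authors' deposited table put its TE 1.63-fold lower and its footprints 1.82-fold lower, the second largest footprint difference of the cytosolic group. *ILS1*, the isoleucyl enzyme, had footprints at 13.94 and 13.5 and mRNA at 12.1 and 12.3. The authors' deposited table put its TE 1.59-fold lower, with a footprint difference of -0.44 and an mRNA difference of 0.22. *ILS1* was therefore inside the 1.5-fold limit in footprints and past it in TE, with mRNA above that of wild type. *SES1*, the seryl enzyme, was the one cytosolic enzyme above 0, at 0.24 in the authors' deposited table. Its footprints were 12.97 and 12.96 and its mRNA 11.5 and 11.3, so *SES1* footprints were level while its mRNA was lower.

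*NAM2*, the mitochondrial leucyl enzyme, which also takes part in splicing of mitochondrial introns, had the lowest TE difference of all 33 synthetases. Its footprints were 7.91 in wild type and 6.87 in *tif3*Δ, about 327 and 108 footprints, and its mRNA was 8.4 and 8.5. In the authors' deposited table its TE was 2.22-fold lower, with a counting interval of the log2 footprint difference from -1.37 to -0.72. The leucyl enzymes of the cytosol and of mitochondria were thus both past 1.5-fold. At the other end, *DIA4* had the highest TE difference, 0.36 in the authors' deposited table. Its footprints were 7.29 and 7.11 and its mRNA 8.1 and 7.5, so the mRNA difference (-0.53) was larger than the footprint difference (-0.18). The other 10 mitochondrial enzymes lay between -0.27 for *ISM1*, the isoleucyl enzyme, and 0.27 for *MSW1*, the tryptophanyl enzyme, in the authors' deposited table.

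Taken separately at 37 °C, footprints showed the same ordering of the groups and mRNA did not separate them. Footprint differences were below 0 in 18 of 21 cytosolic enzymes, with a median of -0.40, and in 8 of 12 mitochondrial enzymes, with a median of -0.07, against 48.1% of all genes. Footprints were at least 1.5-fold lower for *ALA1*, *YHR020W* and *CDC60* in the cytosol and for *NAM2*, 4 of 33 synthetases (12.1%) against 13.2% of all genes. No synthetase had footprints at least 1.5-fold higher, against 12.1% of all genes. The median mRNA difference was -0.05 in the cytosolic and -0.08 in the mitochondrial group, and 19 of 33 synthetases (57.6%) were below 0, against 51.1% of all genes. Without the 5 enzymes counted here as serving both compartments the cytosolic mRNA median was 0.05, so its sign depends on them. No synthetase mRNA was 1.5-fold apart in either direction, against 8.77% of all genes higher and 8.87% lower. The extremes were -0.53 for *DIA4* and 0.33 for *FRS2*, a subunit of the phenylalanyl enzyme, in the authors' deposited table.

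**Figure D3:**
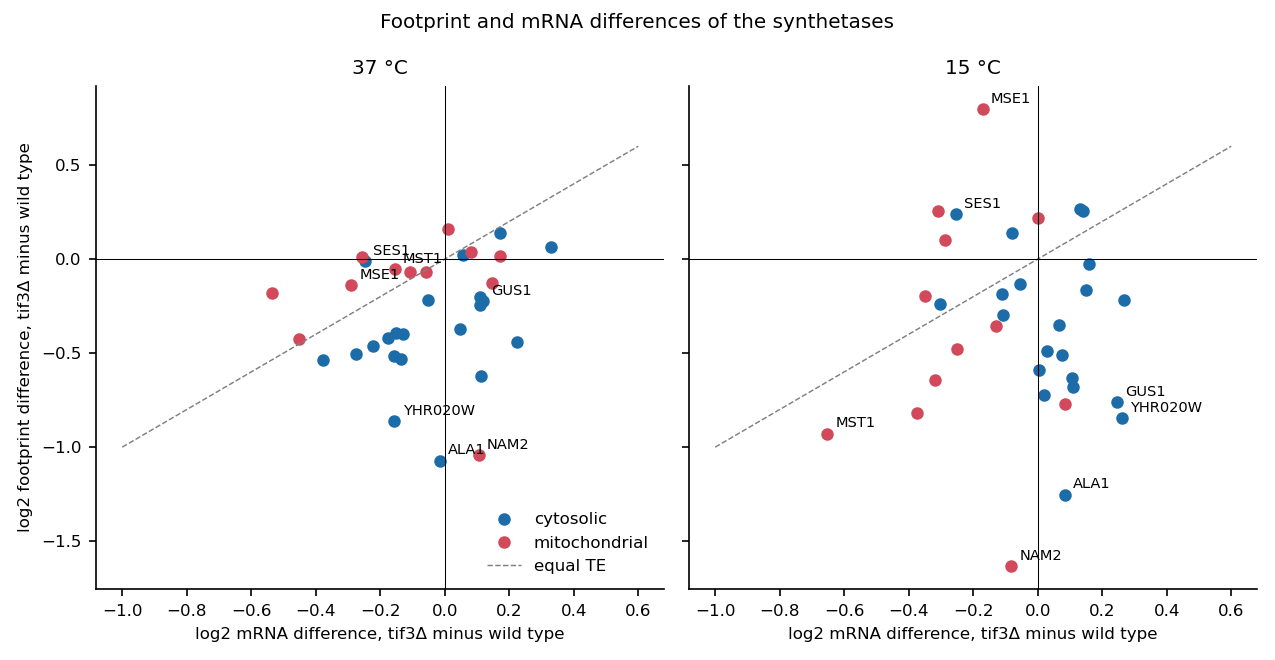
Footprint difference (y axis) against mRNA difference (x axis) of each synthetase, both log2, *tif3*Δ minus wild type, at 37 °C (left) and 15 °C (right). Points under the dashed line have lower TE in *tif3*Δ. The cytosolic enzymes (blue) spread mostly downward, to -1.07 for *ALA1* at 37 °C, while no mRNA difference was outside -0.53 to 0.33 at that temperature.

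The TE differences at 37 °C followed coding length among the synthetases as they did among all genes. The Spearman rho of TE difference with coding length was -0.66 over the 21 cytosolic enzymes, -0.83 over the 12 mitochondrial enzymes and -0.65 over 5195 genes with a length. All of these genes share the same libraries. The 10 cytosolic enzymes of up to 2000 coding nucleotides had a median TE difference of -0.20, the 8 from 2000 to 3000 a median of -0.35, and the 3 longer than 3000 (*CDC60*, *ILS1* and *VAS1*) a median of -0.67. The medians of all genes in these classes were 0.16, -0.29 and -0.56. In the shortest class the median was below 0 for the cytosolic enzymes and above 0 for all genes, but this class is not matched for length. Its shortest cytosolic enzyme had 1185 coding nucleotides, while all genes went down to 78. In the longer classes both medians were below 0. *VAS1*, the valyl enzyme, has the longest coding sequence (3315 nucleotides) but a TE difference of only -0.24 in the authors' deposited table, with footprints at 13.63 and 13.21 and mRNA at 12.4 and 12.2.

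After subtraction of the median of genes in the same of 10 coding length classes, 16 of 21 cytosolic enzymes were below 0 and 11 of 12 mitochondrial enzymes above 0, with medians of -0.10 and 0.14. The cytosolic enzymes with the lowest values were then *YHR020W* (-0.52) and *ALA1* (-0.50), both just inside 1.5-fold. *NAM2* remained at -0.85 and was the one mitochondrial enzyme below 0. *VAS1* and *SES1* were the highest cytosolic enzymes, at 0.31 and 0.23. The median coding length was 2004 nucleotides in the cytosolic group, 1669.5 in the mitochondrial group and 1266 over all genes.

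**Figure D4:**
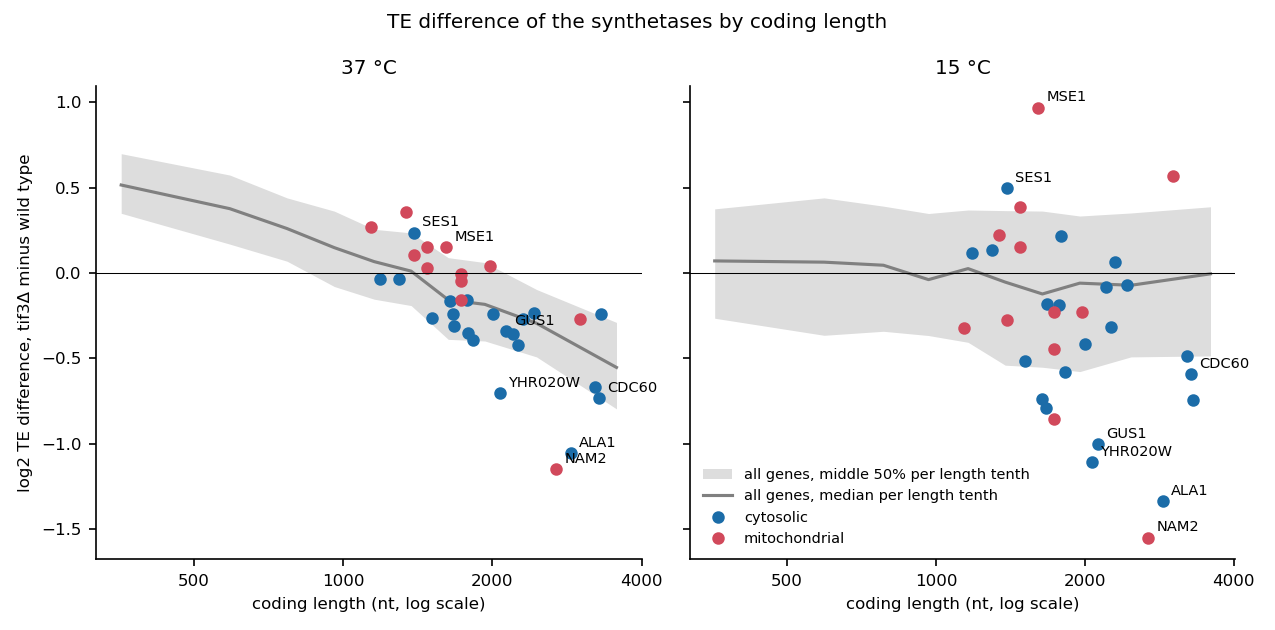
TE difference (y axis, log2, *tif3*Δ minus wild type) against coding length (x axis, nucleotides, log scale) at 37 °C (left) and 15 °C (right). The grey line is the median of all genes in each of 10 classes of coding length and the grey band their interquartile range; at 37 °C the synthetases follow the falling line (rho -0.66 cytosolic, -0.83 mitochondrial), while *ALA1*, *YHR020W* and *NAM2* lie below it, and at 15 °C the line is near 0.

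At 15 °C the cytosolic enzymes were again mostly lower in TE without eIF4B, and more of them were past 1.5-fold. TE differences were below 0 for 16 of 21 cytosolic enzymes (76.2%), with a median of -0.41 (-1.34 to 0.49), and for 7 of 12 mitochondrial enzymes, with a median of -0.23 (-1.55 to 0.97). Of all 5012 genes tested, 50.3% were below 0, with a median of 0.00. TE was at least 1.5-fold lower for 7 cytosolic enzymes (33.3%) and 2 mitochondrial enzymes (16.7%), against 18.9% of all genes. It was at least 1.5-fold higher for 1 mitochondrial enzyme, *MSE1*, against 13.9% of all genes. Without the 5 enzymes counted here as serving both compartments the cytosolic median was -0.25. The *tif3*Δ footprints at 15 °C were the shallowest of the footprint groups, and their values are mostly rounded to 1 decimal.

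*ALA1* again had the lowest value of the cytosolic group. Its footprints were 11.68 and 10.4, about 4548 and 633 footprints, and its mRNA was 10.7 in both. In the authors' deposited table its TE was 2.52-fold lower, with a counting interval of the log2 footprint difference from -1.37 to -1.13. *YHR020W* followed, with footprints at 10.75 and 9.9 and mRNA at 10.6 and 10.8, and with TE 2.16-fold lower in the authors' deposited table. *GUS1*, the glutamyl enzyme, which binds the cofactor *ARC1* together with the methionyl enzyme *MES1*, had footprints at 12.28 and 11.5 and mRNA at 11.1 and 11.4. The authors' deposited table gave its TE as 2.01-fold lower, against 1.27-fold lower at 37 °C, where its footprints were 13.79 and 13.57 and its mRNA 12 and 12.1. In all 3 genes the footprints were lower and the mRNA level or higher.

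*DED81*, the asparaginyl enzyme, had footprints at 11.71 and 11 and mRNA at 10.9 and 11, with TE 1.73-fold lower in the authors' deposited table. *VAS1* had footprints at 11.98 and 11.3 and mRNA at 11.3 in both, with TE 1.67-fold lower in the authors' deposited table. *HTS1*, the histidyl enzyme, had footprints at 10.83 and 10.2 and mRNA at 10.2 and 10.3, also with TE 1.67-fold lower in the authors' deposited table. These 3 enzymes had stood inside 1.5-fold at 37 °C, where *DED81* footprints were 13.31 and 12.92 with mRNA at 11.8 and 11.7, and *HTS1* footprints were 12.35 and 12.13 with mRNA at 11.2 and 11.1. *CDC60* had footprints at 12.12 and 11.5 and mRNA at 10.5 in both, with TE 1.51-fold lower in the authors' deposited table. *CDC60* was just past the limit, and *YDR341C*, the arginyl enzyme, just inside it at -0.58 in the authors' deposited table. *ILS1*, past it at 37 °C, had a TE difference of -0.49 in the authors' deposited table, with footprints at 12.05 and 11.8 and mRNA at 11.1 and 11.4.

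Of the cytosolic enzymes, 5 had TE above 0 at 15 °C. *SES1* was highest at 0.49 in the authors' deposited table, with footprints at 11.47 and 11.7 and mRNA at 10.5 and 10.3. *FRS1* (0.22), *WRS1* (0.14), *TYS1*, the tyrosyl enzyme (0.12), and *YNL247W*, the cysteinyl enzyme (0.06), made up the rest in the authors' deposited table. *FRS1* and *FRS2* encode the 2 subunits of 1 enzyme and were 0.22 and -0.52 in TE at 15 °C, but -0.35 and -0.27 at 37 °C, in the authors' deposited table. *FRS1* footprints at 15 °C were 10.89 and 11 with mRNA at 10.3 in both, and *FRS2* footprints were 10.71 and 10.2 with mRNA at 9.7 in both. At 37 °C their footprint differences were -0.24 for *FRS1* and 0.06 for *FRS2* in the authors' deposited table, so the subunits lay on opposite sides of 0 in footprints at both temperatures, in opposite order.

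Among mitochondrial enzymes at 15 °C, *NAM2* was lowest, with footprints at 6.63 and 5.0 and mRNA at 7.1 and 7.0. In the authors' deposited table its TE was 2.93-fold lower, from about 137 and 15 footprints, and the counting interval of the log2 footprint difference ran from -2.47 to -0.83. *MSK1*, which encodes the lysyl enzyme and is also required for import of a cytosolic lysine tRNA into mitochondria, had footprints at 6.62 and 5.9 and mRNA at 7.5 in both. The authors' deposited table gave TE 1.81-fold lower, with a counting interval of the footprint difference from -1.46 to -0.18. At 37 °C *MSK1* had no such difference, with footprints at 7.65 and 7.58 and mRNA at 8.7 and 8.6. *MSE1*, the glutamyl enzyme, had footprints at 5.75 and 6.5 and mRNA at 6.5 and 6.3. The authors' deposited table put its TE 1.96-fold higher, from about 75 and 43 footprints, with a counting interval of the footprint difference from 0.21 to 1.35. At 37 °C *MSE1* footprints were 7.23 and 7.09 and its mRNA 8.2 and 7.9. The mitochondrial enzymes had between 61 and 137 footprints in wild type and between 15 and 43 in *tif3*Δ at 15 °C, against 1564 to 6893 and 440 to 1799 in the cytosolic group.

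In the separate measurements at 15 °C, footprints were below 0 in 17 of 21 cytosolic enzymes (median -0.30) and 8 of 12 mitochondrial enzymes (median -0.42), against 49.5% of all genes. Footprints were at least 1.5-fold lower for 7 cytosolic and 5 mitochondrial enzymes, 12 of 33 (36.4%), against 20.7% of all genes. The 7 cytosolic enzymes were those named above for TE, and the 5 mitochondrial ones were *NAM2*, *MST1*, *AIM10*, *MSK1* and *MSW1*. *MST1* had about 123 and 21 footprints, *AIM10* 126 and 24, and *MSW1* 105 and 22. The counting interval of the footprint difference included 0 for *MSW1* (-1.40 to 0.01), but not for *MST1* (-1.70 to -0.28) or *AIM10* (-1.49 to -0.16). The share of all genes is not matched for footprint number. Footprints were at least 1.5-fold higher for *MSE1*, against 16.0% of all genes. mRNA went the other way in the cytosolic group, with 6 of 21 below 0 and a median of 0.08, and was lower in the mitochondrial group, with 10 of 12 below 0 and a median of -0.27, against 49.6% of all genes. The mRNA of *MST1* stood 1.57-fold lower in *tif3*Δ in the authors' deposited table, the only synthetase mRNA past 1.5-fold, against 5.85% of all genes lower and 6.78% higher. *MST1* footprints were 6.47 and 5.5 and its mRNA 6.6 and 5.9, so footprints and mRNA were both lower and its TE difference was -0.27 in the authors' deposited table. The mRNA values are rounded to 1 decimal, and the mitochondrial mRNAs are scarce.

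Coding length was less closely related to TE at 15 °C. The Spearman rho was -0.39 over the cytosolic enzymes, -0.16 over the mitochondrial enzymes and -0.07 over 5010 genes. By length class the cytosolic medians were -0.18, -0.36 and -0.59, from the shortest class to the longest, while those of all genes were 0.01, -0.07 and -0.03. Subtracting the median of the same of the 10 length classes left the cytosolic median at -0.35 and the count of 7 cytosolic enzymes at least 1.5-fold lower.

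Between temperatures, 3 cytosolic enzymes (*ALA1*, *CDC60* and *YHR020W*) and 1 mitochondrial enzyme (*NAM2*) had TE at least 1.5-fold lower at both, against 4.72% of the 4999 genes tested at both. A further 5 cytosolic enzymes and 1 mitochondrial enzyme were past this at 1 temperature only, against 20.5% of these genes. TE was below 0 at both temperatures for 16 of 21 cytosolic enzymes (76.2%) and for 4 of 12 mitochondrial enzymes, against 30.0% of these genes. It was above 0 at both for *SES1* and for the mitochondrial enzymes *DIA4*, *MSE1*, *MSY1* and *SLM5*, against 31.8%. The signs were opposite for *FRS1*, *TYS1*, *WRS1* and *YNL247W* in the cytosol and for *ISM1*, *MSD1*, *MST1* and *MSW1* in mitochondria, against 38.2%. These shares of all genes are not matched for coding length. After subtraction by length class at 37 °C, *ALA1* (-0.50), *YHR020W* (-0.52) and *CDC60* (-0.18) were inside 1.5-fold, and *NAM2* (-0.85) was past it. The Spearman rho of the TE differences at the 2 temperatures was 0.51 over the cytosolic enzymes, 0.36 over the mitochondrial enzymes and 0.33 over 4999 genes. Whether the differences at 37 and 15 °C differ from each other was not tested, since no group has replicate values.

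Summed over the genes, the cytosolic synthetases took 1.47% (wild type) and 1.13% (*tif3*Δ) of all listed footprint signal at 37 °C. At 15 °C these shares were 1.51% and 1.15%. Their shares of the mRNA signal were 1.12% and 1.08% at the higher temperature and 1.23% and 1.08% at the lower. The mitochondrial enzymes together took 0.0220% and 0.0203% of the footprint signal at the higher temperature and 0.0224% and 0.0173% at the lower. Their mRNA shares were 0.0620% and 0.0589% at the higher temperature and 0.0434% and 0.0309% at the lower. In these sums, which weight abundant genes most, footprint and mRNA shares of both compartments were lower in *tif3*Δ at both temperatures. A share also depends on the signal of all other listed genes, so a lower share does not mean lower normalised values of the synthetases. At 15 °C the cytosolic mRNA share was lower in *tif3*Δ, while 15 of 21 cytosolic mRNA differences were above 0, with a median of 0.08.

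The cytosol and mitochondria have separate enzymes for 12 amino acids in these tables, so that the 2 enzymes for 1 amino acid can be set side by side. In wild type the cytosolic enzyme of each pair was higher in all 12 pairs at both temperatures, in TE by a median of 4.04-fold at 37 °C (1.88 to 6.77) and 2.26-fold at 15 °C (1.17 to 5.43). Its mRNA per kilobase was higher by a median of 10.03-fold at 37 °C and 14.0-fold at 15 °C, and its footprints per kilobase by 43.5-fold and 42.2-fold. The widest TE gap at 37 °C was between *GUS1* and *MSE1* for glutamate, 6.77-fold, and the narrowest between *WRS1* and *MSW1* for tryptophan, 1.88-fold.

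At 37 °C the TE difference was higher for the mitochondrial enzyme in 11 of 12 pairs, by a median of 0.29 on the log2 scale (-0.41 to 0.66). The exception was leucine, where *NAM2* was 0.41 below *CDC60*. One pair was at least 1.5-fold apart, the prolyl enzymes, where *AIM10* was 1.58-fold above *YHR020W*. At 15 °C the mitochondrial enzyme was higher in 6 of 12 pairs, with a median of 0.02 (-0.96 to 1.97), so the ordering seen at 37 °C was not found there. At 15 °C 6 pairs were at least 1.5-fold apart, in both directions. *MSE1* was 3.93-fold above *GUS1* (glutamate), *ISM1* 2.07-fold above *ILS1* (isoleucine), *SLM5* 1.93-fold above *DED81* (asparagine) and *AIM10* 1.58-fold above *YHR020W* (proline). *NAM2* was 1.94-fold below *CDC60* (leucine), and *MSK1* was 1.59-fold below *KRS1* (lysine).

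Of these enzymes, *ISM1* had footprints at 6.1 in wild type and 6.4 in *tif3*Δ and mRNA at 6.4 and 6.1 at 15 °C, about 95 and 38 footprints. *AIM10* had footprints at 6.51 and 5.7 and mRNA at 6.7 and 6.3. *KRS1*, the cytosolic lysyl enzyme, had footprints at 12.23 and 11.9 and mRNA at 11.5 and 11.4. The mitochondrial member of each pair thus rested on far fewer footprints than its cytosolic partner. With counting error of the footprints alone, the interval of the enzyme's own TE difference included 0 for *SLM5* (-0.59 to 0.91) and *AIM10* (-1.12 to 0.21). It also included 0, just above its lower end, for *ISM1* (-0.002 to 1.14). Such an interval sets 1 enzyme against 0 and does not measure the gap to its partner. The partner intervals were -0.90 to -0.69 for *DED81*, -1.26 to -0.96 for *YHR020W* and -0.57 to -0.41 for *ILS1*. Among *SLM5*, *AIM10* and *ISM1*, only the interval of *AIM10* overlapped that of its partner.

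**Figure D5:**
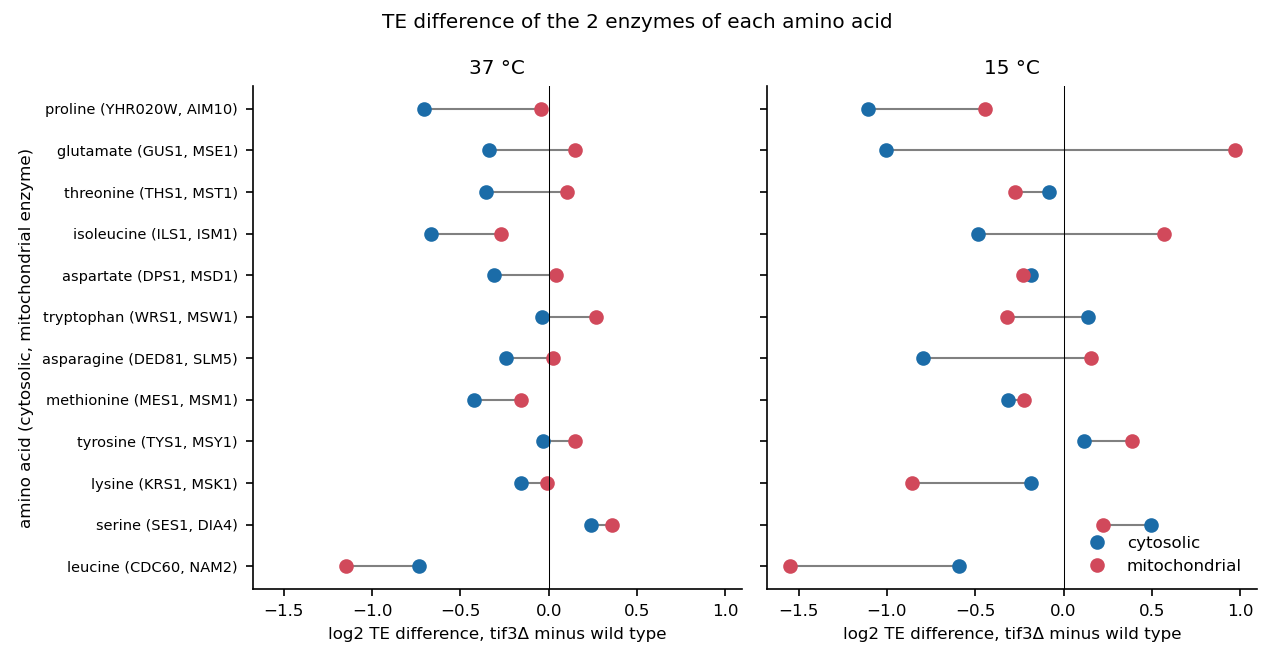
TE difference (x axis, log2, *tif3*Δ minus wild type) of the cytosolic (blue) and the mitochondrial (red) enzyme for each of 12 amino acids at 37 °C (left) and 15 °C (right), joined by a line. At 37 °C the mitochondrial enzyme lies to the right in 11 of 12 pairs, leucine being the exception, and at 15 °C in 6 of 12.

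The 5 genes counted here as making both a cytosolic and a mitochondrial enzyme (*ALA1*, *GRS1*, *HTS1*, *VAS1* and *YNL247W*) were also described apart. This list may not be complete. Their TE differences were below 0 in 5 of 5 at 37 °C, with a median of -0.24 and 1 at least 1.5-fold lower, and in 4 of 5 at 15 °C, with a median of -0.74 and 3 at least 1.5-fold lower. The other 16 cytosolic enzymes had medians of -0.32 and -0.25, with 3 at least 1.5-fold lower at 37 °C and 4 at 15 °C. Of all genes, 11.1% and 18.9% were at least 1.5-fold lower at these temperatures. *HTS1* and *VAS1* use a pair of in-frame ATG codons, whereas *ALA1* and *GRS1* (glycyl) start their mitochondrial form at codons other than ATG. The upstream starts of *ALA1* and *GRS1* are shown because they place the start of 1 form of each enzyme outside the annotated coding sequence. The sequences are from the RefSeq R64 genome, 5′ to 3′ on the coding strand, at chrXV:949167-949196 (minus strand) for *ALA1* and chrII:483419-483448 (minus strand) for *GRS1*, with the upstream start codons in capitals.
ALA1: atttaagacaagACGACGtcaactaccgga
GRS1: tttcaagaaaaaTTGtcgttcttcaatatc
In *ALA1* the first of the paired ACG codons is codon -25, counted back from the annotated ATG, and in *GRS1* the TTG is codon -23. Both are in frame with the ATG and no stop codon lies between. The 2 genes differed in TE, with *GRS1* at -0.24 at 37 °C and -0.41 at 15 °C in the authors' deposited table, inside 1.5-fold at both temperatures. Footprints of the longer and shorter forms cannot be told apart in a value per gene.

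*YHR020W* and *SES1* had TE differences of opposite sign at both temperatures, and their start regions are shown for that reason. They lie at chrVIII:143981-144010 (plus strand) and chrIV:489493-489522 (plus strand) of R64, with the base at -3 and the start codon in capitals.
YHR020W: agaacaaatcaaAatATGcctgtttcggaa
SES1: agcgtgtaattaAaaATGttggacatcaac
An A at position -3 is the preferred base in yeast start sites, and both genes have it. It was present in 16 of 21 cytosolic enzymes (76.2%), 7 of 12 mitochondrial enzymes (58.3%) and 3202 of 5191 genes (61.7%). Only the annotated ATG of each gene was scored. *HTS1* (T at -3) and *VAS1* (G at -3) each use a second in-frame ATG, which was not scored.

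Synthetases fall into class I and class II, which have unrelated catalytic folds. This split was made after the values were seen. Median TE differences of the cytosolic enzymes were -0.30 for 10 class I and -0.27 for 11 class II enzymes at 37 °C, and -0.40 and -0.41 at 15 °C.

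Genes listed as partners of the cytosolic synthetases had TE differences on both sides of 0. The list held 9 genes, among them *ARC1*, the tRNA exporters and translation elongation factor 1A, which carries charged tRNA to the ribosome. It also held *GRS2*, a relative of the glycyl enzyme gene *GRS1* that is not on the fixed list of synthetases. The genes of that factor, *TEF1* and *TEF2*, are near-identical copies that share reads and were averaged to 1 observation. At 37 °C the median TE difference of the 8 observations was 0.09, with 3 below 0 (37.5%, against 47.4% of all genes) and none past 1.5-fold (against 10.3% of all genes higher and 11.1% lower). The ends were *LOS1*, a nuclear tRNA exporter, at -0.55, and *DTD1*, which removes D-amino acids from tRNA, at 0.57 in the authors' deposited table. At 15 °C the median was -0.06, with 5 of 8 below 0 (62.5%, against 50.3% of all genes). *DTD1* was at 0.59, past 1.5-fold, and *CEX1*, a cytoplasmic tRNA export factor, was lowest at -0.44 in the authors' deposited table. Thus 1 of 8 was at least 1.5-fold higher in TE (12.5%, against 13.9% of all genes) and none lower (against 18.9%). The mRNA of *PTH2*, a peptidyl-tRNA hydrolase, stood 1.56-fold lower at 37 °C in the authors' deposited table. It was the 1 of 8 with mRNA at least 1.5-fold lower (12.5%, against 8.87% of all genes). The elongation factor genes *TEF1* and *TEF2* both had mRNA differences of 0.64 at 15 °C in the authors' deposited table. As 1 observation they were the 1 of 8 with mRNA at least 1.5-fold higher (12.5%, against 6.78% of all genes).

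A second list held factors for charging and translation inside mitochondria. Of 13 listed, 12 were in the tables and *GTF1* was not analysed here. At 37 °C the median TE difference was 0.00, from -0.71 for *FMT1*, which formylates the initiator tRNA, to 0.19 for *RRF1*, the ribosome recycling factor, in the authors' deposited table. *MTO1*, a tRNA modification enzyme, was also past 1.5-fold, at -0.66 in the authors' deposited table. Thus 2 of 12 were at least 1.5-fold lower at 37 °C (16.7%, against 11.1% of all genes). None was at least 1.5-fold higher, against 10.3% of all genes. At 15 °C the median was -0.23, with 3 of 12 at least 1.5-fold higher and 3 lower (25% each), against 13.9% and 18.9% of all genes. *HER2*, a subunit of the amidotransferase that converts the glutamate placed on the glutamine tRNA, was at 0.83 in the authors' deposited table. *RRF1* was at 0.80 and *IFM1*, the mitochondrial initiation factor, at 0.73 in the authors' deposited table. *PET112*, another subunit of that amidotransferase, was at -0.58 in the authors' deposited table, just inside the limit and on the opposite side from *HER2*. *MTO1* was at -0.87 and *MRF1*, the release factor, at -1.33 in the authors' deposited table. *PTH1*, a peptidyl-tRNA hydrolase, was lowest at -1.50 in the authors' deposited table, but from about 21 and 3 footprints. The others named at 15 °C also had few *tif3*Δ footprints. These were about 14 for *MRF1*, 16 for *PET112*, 17 for *MTO1*, 33 for *IFM1*, 36 for *HER2* and 42 for *RRF1*. At 37 °C the authors' deposited table put *PTH1* footprints 2.24-fold and its mRNA 2.01-fold above wild type, the largest such differences on this list. In each measure 1 of 12 was at least 1.5-fold higher (8.33%), against 12.1% of all genes in footprints and 8.77% in mRNA.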

How the data were processed

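The deposited tables, 1 per temperature, hold log2 normalised read values per gene for 4 groups and the authors' log2 differences (*tif3*Δ minus wild type) in footprints, mRNA and TE. According to the submitters' processing notes, the build was sacCer2 and the tools included DESeq, TopHat2 2.0.7, Bowtie2 2.0.6 and CASAVA 1.8. The roles of the tools, and the way both libraries of a group became 1 value, are not given in the sources used here. No table column holds a single library, so the planned tests were replaced by descriptions. Differences are the authors' own, and they equal the difference of the group values within rounding (at most 0.0098 log2 in footprints and 0.0991 in mRNA at 37 °C, 0.0546 and 0.0996 at 15 °C).

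A gene was kept where its mean normalised value over both genotypes reached 10 in footprints and in mRNA. Genes at least 1.5-fold apart were counted. Footprint numbers were recovered from the step between the lowest values. Of those values, 97.5% (wild type) and 100.0% (*tif3*Δ) at 37 °C lay within 0.15 steps of a whole number, and 85.5% and 83.4% at 15 °C, so numbers at 15 °C are less exact. Intervals treat footprints as independent molecules, which PCR copies are not. Levels between genes are per kilobase of the coding length in the RefSeq R64 annotation, matched by systematic name. The files hold no coordinates, and only sequences and lengths come from R64. No synthetase was among the rows that share all values with another row. The length comparison subtracts the median of the same of 10 coding length classes of equal size. Calculations used Python 3.11.15, numpy 2.4.6, pandas 2.3.3, scipy 1.17.1 and matplotlib 3.10.9. The recovery of the footprint step and the length comparison were tested on simulated data, and the other calculations were not.

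The members, the partner lists and the rules were chosen with earlier results of these data known. All synthetases could be named. Group values were given for members past 1.5-fold in TE, for the 3 highest and 3 lowest of each compartment in wild-type TE, and for pairs at least 1.5-fold apart. Values of other members were added where they define a group's range or an opposite sign. Partner genes were named past 1.5-fold, at the ends of their list or to describe what the list held, and *PET112* was named after its value was seen.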

Additional observations from a re-analysis of the deposited data

How the results depend on the processing

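Of 136 values recomputed for 26 results under 6 alternatives, 123 stayed within 0.1 log2, or within 1.5 times for counts, 12 moved and 1 moved and changed sign. Among the 123, 2 small values crossed 0: the mitochondrial TE median at 37 °C went from 0.032 to -0.0055 on subtraction of the median of all genes, and the mitochondrial minus cytosolic mRNA gap at 37 °C from -0.029 to 0.069 on subtraction by length class. No filter, a filter at a mean of 32 and subtraction of the median of all genes moved none by more than 0.1. Subtracting the median of the same of 10 coding length classes put the TE medians at 37 °C at -0.10 (cytosolic) and 0.14 (mitochondrial), the cytosolic footprint median at -0.23, the gap between compartments in footprints at 0.23, the cytosolic mRNA median at -0.19 and the count with TE 1.5-fold lower at 1 instead of 5. At 15 °C it put the footprint medians at -0.18 (cytosolic) and -0.30 (mitochondrial). Without the dual enzymes the cytosolic mRNA median at 37 °C was 0.052 instead of -0.053 and the mitochondrial minus cytosolic mRNA gap -0.13, and at 15 °C the cytosolic TE median was -0.25 and the TE gap 0.023. Differences taken from the rounded group values gave 2 instead of 1 with TE 1.5-fold higher at 15 °C. No paired analysis was possible because the tables hold 1 value per group. Leaving out a library and other count models could not be run for the same reason. Depth limits the mitochondrial enzymes most, with 15 to 43 footprints in *tif3*Δ at 15 °C.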
